A study of Mus musculus with 19 samples.

Results

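The Hox cluster genes were followed here across the embryonic mouse lens, the tooth germ and the whole body of the embryo. The members are all protein-coding genes named Hoxa, Hoxb, Hoxc or Hoxd with a number, chosen by symbol and with no filter on signal. The annotation lists 39 of them, and 33 had a probe set that names no other gene, of 18193 genes with such a probe set in all. Where a gene had several, the probe set with the highest mean over all 19 arrays stood for it as its main probe set, and values are of the main probe set unless another is named. The 33 members divide into 9 of the Hoxa cluster, 9 of Hoxb, 7 of Hoxc and 8 of Hoxd. The other 6 had no probe set of their own and were not analysed here.

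Hox genes encode homeodomain transcription factors that give cells their position along the head-to-tail axis. They lie in 4 clusters, and genes of the same number in different clusters (paralogues) derive from a common ancestor. In the embryo the low numbers are switched on first and reach furthest forward, into the hindbrain, while the high numbers are used in the tail end of the trunk and in the limb buds. The front of the head, which gives rise to the lens placode and to much of the tooth-forming jaw, develops without Hox activity. Hox proteins bind DNA together with TALE cofactors of the Pbx, Meis and Pknox families, retinoic acid and Cdx factors act upstream of the clusters, and Polycomb and Trithorax complexes keep the clusters off or on.

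All 19 Affymetrix arrays, 1 per sample, held RNA of wild-type embryos of the ICR strain, with no treatment and no mutant allele in any group. Lens was taken at embryonic days E10.5, E11.5 and E12.5 (3 arrays each), and whole body labelled E10.5 to E12.5 (4 arrays) is the control of the lens series. Tooth germ was taken at E13.5 (3 arrays), and whole body labelled E11.5 to E13.5 (3 arrays) is the control of the tooth series. The labels give each body array a range of stages, not a stage, so a lens stage is not set against a body of exactly its own age, and they do not say whether replicates are separate litters, pools or repeat hybridisations. The p-values then measure only the spread between these arrays, whose number limits the precision.

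The arrays had median signals from 42.5 to 46.5. The tissue labels were borne out by markers: all 8 lens markers were called higher in E12.5 lens (Cryaa, the alpha-crystallin gene, by 9.37 ± 0.30, difference ± SE, log2; Pax6, the eye master regulator, by 3.93 ± 0.34), and 7 of 8 dental mesenchyme markers were called higher in the tooth germ (Msx1 by 2.51 ± 0.28, Pax9 by 0.35 ± 0.13). The lens series had 6 arrays with high and 7 with low signal of the spike-in control RNA, 4 and 5 of them lens. The tooth series differed from the lens series in how the signal fell along a transcript: the 3′ probe set of Actb exceeded its 5′ probe set by 0.21 to 0.48 (log2) in the lens series and by 4.22 to 5.05 in the tooth series.

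The promoters of 1 member per cluster are shown, since members of all 4 clusters were lower together in the lens. For each cluster the member with the largest fall in E12.5 lens among those with a promoter entry was taken. A single RefSeq start per gene in GRCm38.p6 was used. With CpG dinucleotides in capitals, the 250 bases upstream of that start are given 5′ to 3′ in the direction of transcription. They lie at chr6:52240855-52241104 (minus strand) for Hoxa10, chr11:96318017-96318266 (plus) for Hoxb4, chr15:103034145-103034394 (plus) for Hoxc4 and chr2:74667975-74668224 (plus) for Hoxd13.
Hoxa10: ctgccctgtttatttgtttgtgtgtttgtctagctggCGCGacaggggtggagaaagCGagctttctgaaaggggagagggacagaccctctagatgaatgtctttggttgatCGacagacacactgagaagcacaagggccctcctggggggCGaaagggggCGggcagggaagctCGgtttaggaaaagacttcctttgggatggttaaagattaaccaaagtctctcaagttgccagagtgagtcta
Hoxb4: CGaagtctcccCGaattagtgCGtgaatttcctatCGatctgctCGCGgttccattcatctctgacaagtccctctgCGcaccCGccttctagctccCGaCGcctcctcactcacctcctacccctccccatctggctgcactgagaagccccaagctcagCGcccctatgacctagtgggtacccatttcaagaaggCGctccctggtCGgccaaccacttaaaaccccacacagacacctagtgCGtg
Hoxc4: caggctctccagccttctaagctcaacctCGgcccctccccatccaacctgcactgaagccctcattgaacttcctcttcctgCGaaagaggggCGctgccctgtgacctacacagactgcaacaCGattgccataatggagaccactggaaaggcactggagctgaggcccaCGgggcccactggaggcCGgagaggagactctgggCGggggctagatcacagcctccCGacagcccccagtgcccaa
Hoxd13: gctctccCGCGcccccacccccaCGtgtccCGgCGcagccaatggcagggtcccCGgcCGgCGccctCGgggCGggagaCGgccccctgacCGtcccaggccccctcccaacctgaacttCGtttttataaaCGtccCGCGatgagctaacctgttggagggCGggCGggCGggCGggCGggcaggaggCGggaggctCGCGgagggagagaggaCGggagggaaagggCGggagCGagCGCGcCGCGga
The Hoxc4 stretch lies inside the annotated span of its gene (chr15:103018097-103036856). The Hoxd13 stretch holds 31 CpG dinucleotides, the Hoxb4 stretch 14, the Hoxc4 stretch 8 and the Hoxa10 stretch 7. A promoter entry was matched for 19 of the 33 members. Their median was 12 CpG in 250 bases, against 6 over the 27025 genes with an entry. Searched on both strands, the Hox-Pbx composite motif TGATNNAT occurred in 2 of 19 members and in 7.91% of all these genes, and it was in none of the 4 stretches shown. The TATA motif TATAAA, searched on the coding strand, occurred in 1 of 19, Hoxd13 (5.26%), and in 8.12% of all genes. These matches describe the letters and not sites in use.

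In the lens nearly every Hox gene was below the whole body. At E10.5, 29 of 33 members were called lower and 0 higher (limma, two-sided, adjusted p under 0.05), where 15% of all 18193 genes were called lower and 9.7% higher. In E11.5 lens 25 were called lower, where 16.7% of all genes were lower and 10.6% higher. In E12.5 lens 29 were called lower, where 20.1% of all genes were lower and 12.3% higher. None was called higher at either of these stages. At an unadjusted p under 0.05, 0 members were higher at any of the 3 stages, and all 33 differences were negative at each. The median member differed by -1.65, -1.53 and -1.47 (log2) at the 3 stages, and the median of all genes by -0.02, 0.01 and 0.00. A call at a fall of at least 2-fold was made for 24, 22 and 22 members, against 7.72%, 7.96% and 9.39% of all genes. The arrays of lens and body did not overlap for 31, 26 and 29 members, against 32.8%, 30.9% and 39.5% of all genes. In 26 members every one of the 9 lens arrays lay below every one of the 4 body arrays, and the other 7 were Hoxa3, Hoxa7, Hoxa13, Hoxb7, Hoxb13, Hoxc9 and Hoxd12. For this order of the 9 lens and 4 body arrays, the share of all genes was not counted. In bulk tissue, fewer cells that express a gene and less RNA of it per cell cannot be told apart.

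**Figure D1:**
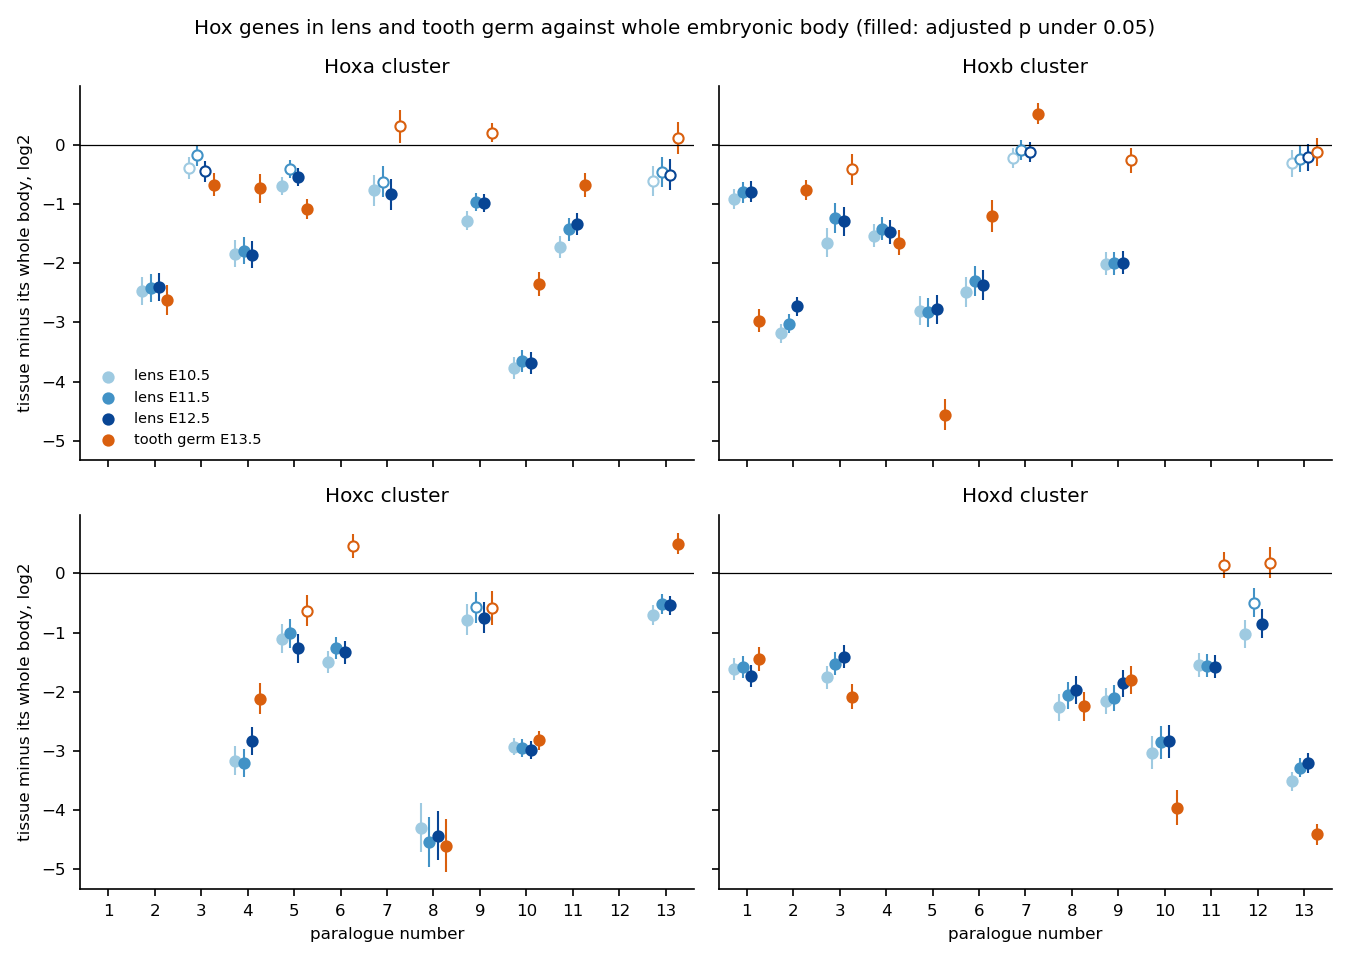
Difference of each of the 33 Hox genes from its own whole body (log2, y axis) by paralogue number (x axis), in 1 panel per cluster. Points are limma estimates with SE bars, blue for lens at the 3 stages (3 arrays each against 4 body arrays) and orange for tooth germ (3 against 3), filled where the adjusted p is under 0.05. All lens points lie below 0 and the 3 stages lie close together, while several tooth points of numbers 6, 7, 9, 11, 12 and 13 lie at or above 0.

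The signal was also set against a background, 4.71 on the log2 scale, the 95th percentile of 27 control probe sets for sequence absent from the mouse. In the lens-series body 31 of 33 members lay above it on all 4 arrays. In the lens 9, 10 and 11 members did so on all arrays of E10.5, E11.5 and E12.5, and 16, 15 and 17 were above it on none. Hoxb1 and Hoxb7 were below it in lens and body alike, so the call of Hoxb1 in the lens compares values at background and no fold is given for it. Above background on every body array and on no lens array were 14, 13 and 15 members. All of them were called lower, which this choice all but fixes. With values below the background raised to it, they were at least 1.28-fold to at least 7.8-fold lower. With the values raised, Hoxd1 was no longer called at any stage (adjusted p = 0.12, 0.111 and 0.0968), nor was Hoxd12 at E10.5 and E12.5 (adjusted p = 0.096 and 0.0763).

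Of paralogues 1 to 3, the genes of the hindbrain, pharyngeal arches and neck, 6 of 7 were called lower at each lens stage. Hoxb2, which acts in hindbrain segments and the facial nerve nucleus, led. It measured 3.58, 3.98 and 3.95 (log2) on the E10.5 lens arrays, 3.90, 4.20 and 3.92 at E11.5, with 4.03, 4.30 and 4.56 at E12.5, against 7.02, 7.07, 6.66 and 7.35 in the body. All 9 lens values lay below background and more than 2 log2 units under the lowest body value. The difference was -3.19 ± 0.16 (SE; adjusted p = 1.01e-11) at E10.5 and -2.73 ± 0.16 (adjusted p = 9.12e-11) at E12.5, at least 4.99-fold lower. Hoxa2, which sets the identity of the second pharyngeal arch, stood at 3.23, 3.15 and 3.23 in E10.5 lens and 3.34, 3.23 and 3.25 in E12.5 lens, and at 6.20, 4.97, 5.26 and 6.28 in the body. The body arrays of Hoxa2 fell into a high and a low pair, and the lens arrays lay below both. Its E12.5 difference was -2.40 ± 0.23 (adjusted p = 8.83e-08), at least 1.96-fold lower with values raised to background.

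Hoxd3, of the neck vertebrae, differed by -1.41 ± 0.20 (4.49, 4.37 and 4.06 in lens, 5.87, 5.42, 5.54 and 6.04 in the body) at E12.5, the most of the main probe sets of group 3. Its lens values lay below background, so the fall is at least 2.02-fold. Hoxd1 differed by -1.73 ± 0.19 (3.15, 3.35 and 3.50 against 4.88, 4.72, 5.20 and 5.46), and the groups of arrays did not overlap in either gene. All 9 lens values of Hoxd1 lay below background, so its fall is at least 1.28-fold, and the call was lost with values raised to background. Hoxa3, which is needed for thymus and parathyroid formation, was the member of this class that was not called: its E12.5 lens arrays gave 5.96, 5.83 and 5.96 and the body 6.5, 6.28, 6.5 and 6.18, a difference of -0.45 ± 0.18 (adjusted p = 0.0649). Another probe set of Hoxa3 fell by 2.26 ± 0.23 in the same comparison and was called.

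Of paralogues 4 to 8, which pattern the neck, the thorax and the spinal cord between the limbs, 11 of 12 were called lower at E10.5 and E12.5 and 9 at E11.5. The largest fall among the main probe sets was that of Hoxc8, a gene of the thoracic spinal cord and ribs. It measured 3.32, 3.57 and 3.23 in E10.5 lens, 3.12, 3.12 and 3.17 at E11.5, with 2.96, 3.20 and 3.56 at E12.5, against 8.04, 7.57, 7.32 and 7.75 in the body. The 9 lens values were all below background and the 4 body values all well above it. The differences were -4.29 ± 0.42 (adjusted p = 1.15e-07), -4.53 ± 0.42 (adjusted p = 5.59e-08) and -4.43 ± 0.42 (adjusted p = 6.15e-08), at least 7.8-fold lower at each stage. The other probe set of Hoxa9 gave larger differences, -5.12, -5.26 and -5.41, and that of Hoxa5 gave -4.75, -4.69 and -4.63.

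Hoxc4, a gene of the neck and upper thorax, gave 4.64, 4.95 and 4.47 in E10.5 lens, 4.36, 4.75 and 4.81 at E11.5, with 5.43, 4.33 and 5.28 at E12.5. Its body arrays gave 8.11, 7.79, 7.65 and 7.85. The lens values straddled the background and stayed clear of the body, and the E11.5 difference was -3.21 ± 0.24 (adjusted p = 2.6e-09). Hoxb5, which is used in the neck, the lung and the nerve cells of the gut, gave 4.14, 4.19 and 3.93 at E10.5 and 4.11, 4.19 and 4.02 at E12.5, against 7.32, 6.76, 6.0 and 7.48. Its E12.5 difference was -2.78 ± 0.24 (adjusted p = 2.08e-08), at least 4.55-fold lower, and the lens arrays spanned far less than the body arrays. Hoxb6, a thoracic gene, led paralogue group 6 at E12.5 with -2.38 ± 0.25 (adjusted p = 2.91e-07).

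Paralogue group 7 had the smallest falls among the groups with several members. Hoxa7, of the thorax, gave 7.35, 6.87 and 6.68 at E10.5, 7.89, 6.66 and 6.79 at E11.5, with 7.38, 6.57 and 6.74 at E12.5, against 7.61, 7.99, 7.85 and 7.49 in the body. Its lens arrays were all above background, and E11.5 replicate 1 lay inside the range of the body. The E12.5 difference was -0.84 ± 0.26 (adjusted p = 0.0156), and at E11.5 it was -0.63 ± 0.26 and not called (adjusted p = 0.0827). Hoxb7 was not called at any lens stage, with all lens and body values below background.

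Of paralogues 9 to 13, which pattern the lumbar to tail region and the limb buds, 12 of 14 were called lower at E10.5 and E12.5 and 10 at E11.5. Hoxa10, which patterns the lumbar spine, the hindlimb and the reproductive tract, measured 2.96, 2.70 and 3.0 in E10.5 lens, 2.98, 3.04 and 3.0 at E11.5, with 2.89, 2.96 and 3.09 at E12.5. Its body arrays measured 6.87, 6.96, 6.20 and 6.61. The groups were far apart, and all lens arrays were below background. The differences were -3.77 ± 0.19 (adjusted p = 5e-12), -3.65 ± 0.19 (adjusted p = 8.19e-12) and -3.68 ± 0.19 (adjusted p = 5.85e-12), at least 3.88-fold lower. The other probe set of Hoxa10 differed by -0.19, 0.03 and -0.16 at these stages, with lens and body arrays alike below background.

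Hoxd13, a gene of the digits and the external genitalia, measured 3.90, 4.15 and 4.18 at E10.5, 4.50, 4.04 and 4.38 at E11.5, with 4.25, 4.28 and 4.63 at E12.5, against 7.65, 7.38, 7.54 and 7.78 in the body. The body arrays were tight and the lens arrays all below background. The differences were -3.51 ± 0.16 (adjusted p = 2.78e-12), -3.28 ± 0.16 (adjusted p = 7.2e-12) and -3.20 ± 0.16 (adjusted p = 8.09e-12), at least 7.37-fold lower. Hoxc10, of the hindlimb and lumbar cord, gave 3.87, 3.87 and 3.95 at E12.5 against 6.64, 6.57, 7.22 and 7.09, a difference of -2.98 ± 0.15 (adjusted p = 4.32e-12). The E12.5 lens arrays were close together and below background, so the fall of Hoxc10 is at least 4.51-fold.

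By the main probe sets Hoxb9, of the thorax, led group 9 with -1.99 ± 0.20 (4.95, 4.54 and 4.83 in E12.5 lens, 6.38, 6.89, 6.48 and 7.34 in the body). Hoxd11, of the forearm and kidney, led group 11 with -1.57 ± 0.20, and Hoxd12, of the digits, was the only measured member of group 12, with -0.85 ± 0.24. Both lay below background on every E12.5 lens array, so their falls are at least 1.76-fold and at least 1.39-fold. Hoxa13 and Hoxb13, of the tail end, were called at no lens stage. Hoxa13 gave 5.39, 4.82 and 4.71 in E12.5 lens against 5.26, 5.86, 5.36 and 5.45 in the body, a difference of -0.51 ± 0.26 (adjusted p = 0.151). Hoxb13 gave 5.26, 4.60 and 4.78 against 4.94, 5.66, 5.01 and 4.79, with overlapping groups and a difference of -0.22 ± 0.22 (adjusted p = 0.526). Neither was called in tooth germ (0.11 and -0.13, adjusted p = 0.789 and 0.707), where Hoxa13 was below background on the tooth and body arrays alike.

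**Figure D2:**
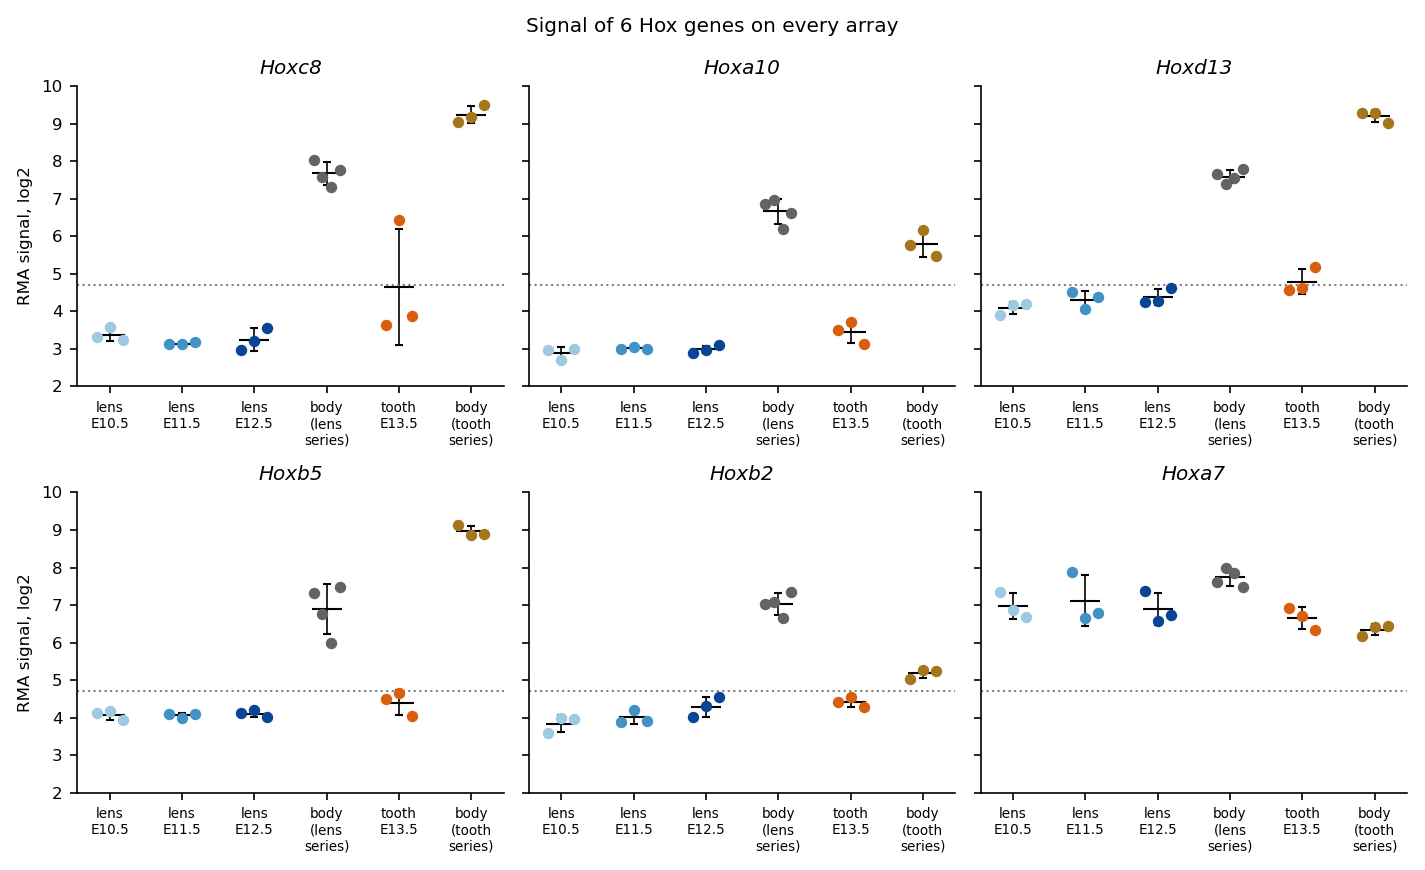
RMA signal (log2, y axis) of 6 Hox genes on each of the 19 arrays by group (x axis). Points are arrays, horizontal marks and bars are the mean and SD of 3 or 4 arrays, and the dotted line is the control background of 4.71. Hoxc8, Hoxa10, Hoxd13, Hoxb5 and Hoxb2 lie below the line on all lens arrays, Hoxa7 lies above it on every array, and tooth germ replicate 2 stands out for Hoxc8 at 6.42.

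By cluster, all 7 Hoxc and all 8 Hoxd members were called lower at E12.5, and 7 of 9 in each of Hoxa and Hoxb. The cluster medians at E12.5 were -0.98 for Hoxa, -1.47 for Hoxb, -1.33 for Hoxc and -1.79 for Hoxd. By position, the medians were -1.41 for paralogues 1 to 3, -1.67 for 4 to 8 and -1.46 for 9 to 13, so the fall had no order from low to high numbers in these medians. Within a paralogue group the members differed more: in group 13 at E12.5 the differences ranged from -3.20 (Hoxd13) to -0.22 (Hoxb13), in group 8 from -4.43 (Hoxc8) to -1.97 (Hoxd8), and in group 10 from -3.68 (Hoxa10) to -2.84 (Hoxd10).

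Hox signal did not move across the lens stages at the threshold. From E10.5 to E11.5, from E11.5 to E12.5 and from E10.5 to E12.5, 0 of 33 members were called by limma, where 2.97%, 4.39% and 15.8% of all genes were called. At an unadjusted p under 0.05 there were 0, 0 and 1 members. That 1 was Hoxb2, 0.46 ± 0.18 higher at E12.5 than at E10.5 (adjusted p = 0.0932), with every lens value below background. The differences between stages lay between -0.24 and 0.53 for the first step, -0.36 and 0.37 for the second and -0.16 and 0.46 for the whole interval. The 95% confidence limits of single members reached as low as -1.18 and as high as 1.07 for the first step, so a missed threshold does not show that the stages were alike.

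The lens arrays were also compared by their spike-in signal. The arrays with high spike-in were E10.5 replicates 1 and 2, E11.5 replicate 1 and E12.5 replicate 1. In Hoxa7, Hoxa13, Hoxb13, Hoxc9 and Hoxd11 all 4 of them lay above all 5 others, while in the other 28 members the arrays of both kinds overlapped. Of all genes 5.63% were separated in this direction. For Hoxa7 they gave 6.87 to 7.89 and the others 6.57 to 6.79, for Hoxc9 7.09 to 7.92 and 6.49 to 7.08, and for Hoxa13 4.92 to 5.83 and 4.55 to 4.82. E11.5 replicate 1, the array with the highest spike-in signal, was the highest of its stage for 21 of 33 members. Its median over all probe sets was also the highest of its stage (5.54 against 5.41 and 5.42, log2). The share of all genes highest on this array was not counted. Without E11.5 replicate 1, 31 members were called lower at E11.5 in place of 25, with Hoxa3, Hoxa5, Hoxa7, Hoxa13, Hoxc9 and Hoxd12 added. Within the arrays of high spike-in signal 28, 23 and 23 members were called lower at the 3 stages, and within those of low signal 29, 31 and 31. In 3 of these 6 counts the lens stage is 1 array (E11.5 and E12.5 in the high set, E10.5 in the low set), whose spread is taken to equal that of the other groups. The share of all genes called was not counted for these fits or for the fit without E11.5 replicate 1.

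**Figure D3:**
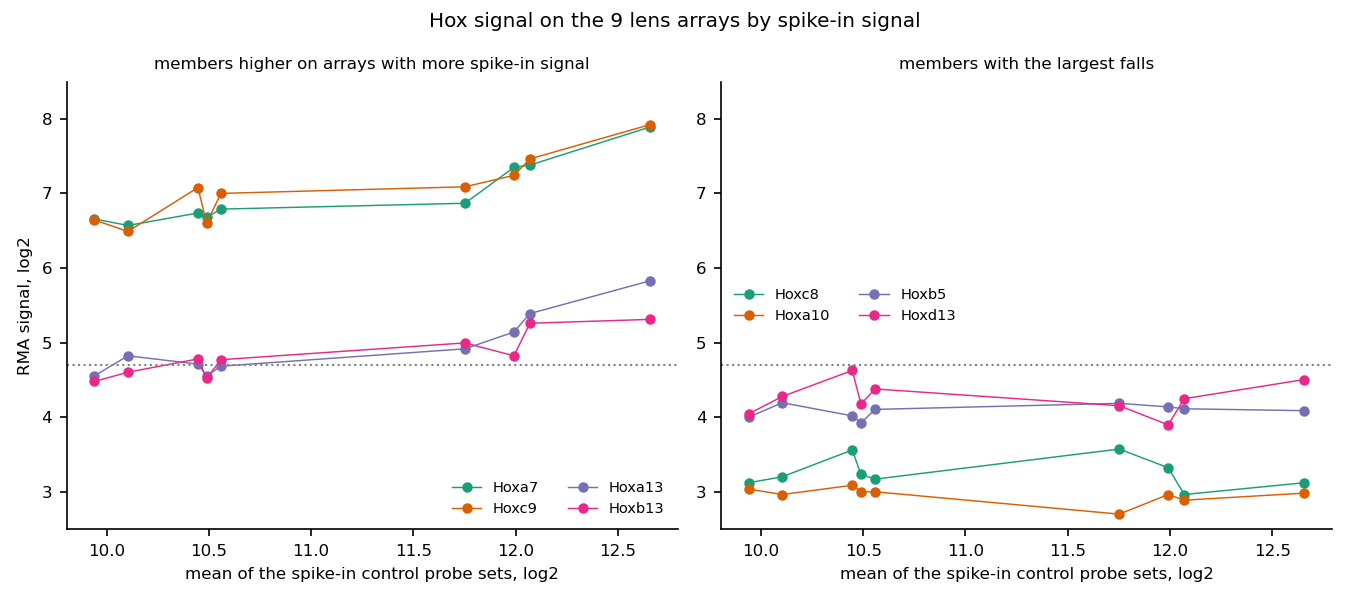
RMA signal (log2, y axis) of 8 Hox genes on the 9 lens arrays, ordered by the mean of the spike-in control probe sets (log2, x axis). Points are arrays, lines join arrays for 1 gene, and the dotted line is the control background of 4.71. Hoxa7 and Hoxc9 reach 7.89 and 7.92 on the array with most spike-in signal, while Hoxc8, Hoxa10, Hoxb5 and Hoxd13 stay below the line on every lens array.

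The lens-series body arrays differed among themselves too. Replicates 1 and 4, those with low spike-in signal, lay above replicates 2 and 3 for 14 of 33 members, among them Hoxa2, Hoxa4, Hoxb5, Hoxc8 and Hoxd10, and below them for 6 (Hoxa7, Hoxb4, Hoxb13, Hoxc6, Hoxc9 and Hoxd12). Of all genes 20.5% had replicates 1 and 4 above and 26.1% had them below, and 13 members overlapped. Hoxd10, of the hindlimb, gave 6.62 and 6.91 on replicates 1 and 4 and 5.30 and 5.54 on replicates 2 and 3. The labels give 1 stage range to all 4 arrays, and the part of the spike-in signal in this split was not tested.

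In the tooth germ 20 of 33 members were called lower than their body and 2 higher, where 19.5% of all genes were called lower and 15.2% higher. The median member differed by -0.77, the median gene by 0.05, and 16 members fell at least 2-fold, against 7.96% of all genes. Above background on all 3 tooth arrays were 12 members, and 15 were above it on none. Above background on every tooth-series body array and on no tooth array were 10 members. All 10 were called lower, which this choice all but fixes. Their falls were at least 1.39-fold to at least 19.1-fold by the same measure, and all 10 calls held with the values raised. The arrays of tooth germ and body did not overlap for 23 members, against 49.1% of all genes. By position and main probe set, 6 of 7 of paralogues 1 to 3 were called lower (median -1.45), 8 of 12 of paralogues 4 to 8 (median -1.14) and 6 of 14 of paralogues 9 to 13 (median -0.43). Hoxa4, Hoxa13, Hoxd11 and Hoxd12 were below background on every tooth and tooth-series body array. The lower call of Hoxa4 therefore compares values at background. For Hoxa13, Hoxd11 and Hoxd12, all of paralogues 9 to 13, a fall could not be measured. Of the 11 members with several probe sets, 3 had every probe set called lower in tooth germ and 7 had some called lower. The share over all genes with several was not counted.

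Among the main probe sets Hoxc8 fell most again, and its tooth arrays disagreed. It measured 3.62, 6.42 and 3.88 in tooth germ against 9.04, 9.17 and 9.49 in the body, a difference of -4.60 ± 0.45 (adjusted p = 1.77e-07). Replicate 2 lay 2.54 log2 units above the higher of the others and still below the body, and without it the difference was -5.49 ± 0.21. The other probe set of Hoxa9 fell by 6.23 ± 0.27, to a mean of 4.62 from 10.9, while the main one gave 0.20 ± 0.17 and was not called. On the same array Hoxb7 and second probe sets of Hoxc5 and Hoxa9 were 0.73, 1.35 and 0.76 above the higher of the other arrays. The limb and trunk mesenchyme markers averaged 5.88, 5.76 and 5.87 on the 3 tooth arrays, the muscle markers 5.20, 4.97 and 4.88 and the spinal neuron markers 4.87, 4.93 and 4.95. The macrophage markers averaged 6.21, 6.43 and 6.29 and the pigment and optic vesicle markers 5.22, 5.35 and 5.12, both highest on replicate 2, and the part of cell composition in that array's values was not tested.

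Hoxb5 measured 4.50, 4.67 and 4.04 in tooth germ against 9.12, 8.87 and 8.89, with all tooth arrays below background. The difference was -4.56 ± 0.26 (adjusted p = 1.33e-10), at least 19.1-fold. Hoxd13 measured 4.57, 4.61 and 5.18 against 9.28, 9.29 and 9.01, a difference of -4.41 ± 0.18 (adjusted p = 1.14e-12). Hoxd10 measured 3.32, 3.52 and 3.78 against 7.60, 7.16 and 7.74, a difference of -3.96 ± 0.30 (adjusted p = 5.62e-09), at least 6.93-fold. By these probe sets both Hoxd genes were far from the body on every array. The other probe set of Hoxd13 gave 5.43, 4.96 and 5.36 in tooth germ and 4.95, 4.92 and 5.31 in the body, which overlapped (0.19 ± 0.22, not called).

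Hoxb1, which defines a single hindbrain segment, was at 3.35, 3.35 and 3.28 in tooth germ and at 6.54, 6.65 and 5.70 in its body, a fall of 2.97 on the log2 scale (SE 0.19, adjusted p = 5.49e-10). The tooth arrays were at background and the body arrays clear of it, unlike the body of the lens series, where Hoxb1 was at background. The fall of Hoxb1 in tooth germ is therefore at least 3.01-fold. Hoxa2 fell by 2.62 and Hoxc10 fell by 2.82 in tooth germ, at least 2.28-fold and at least 5.71-fold. The test between lens and tooth called neither, with differences of 0.22 (95% interval -0.50 to 0.93) and -0.16 (-0.61 to 0.29).

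The 2 members called higher in tooth germ were Hoxb7 and Hoxc13, a gene of hair, nail and tail. Hoxb7 gave 4.22, 4.96 and 4.10 against 3.71, 4.15 and 3.86, with overlapping groups and only replicate 2 of the tooth arrays above background. Its difference was 0.52 ± 0.18 (adjusted p = 0.0305). Hoxc13 gave 5.42, 5.52 and 5.82 against 5.15, 5.31 and 4.80, above background throughout and without overlap, a difference of 0.50 ± 0.18 (adjusted p = 0.0363). Neither call held without tooth replicate 2 (0.26 for Hoxb7 and 0.54 for Hoxc13, adjusted p = 0.223 and 0.0585), without body replicate 1 (0.42 and 0.53) or without body replicate 3 (0.50 and 0.36).

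Whether lens and tooth differ was tested as the E12.5 lens difference minus the tooth difference. Of 33 members 11 were lower and 4 higher by this test, where 15.9% of all genes were lower and 14.3% higher. The largest measured values were Hoxb1 at 2.17 ± 0.26 (adjusted p = 2.49e-06), Hoxb2 at -1.96 ± 0.24 (adjusted p = 3.77e-06), Hoxc6 at -1.79 ± 0.28 (adjusted p = 5.08e-05) and Hoxb5 at 1.78 ± 0.36 (adjusted p = 0.000734). Hoxb1 was at background in the lens, in the body of the lens series and in tooth germ, so its value rests on the tooth-series body. With values raised to background these 4 tests gave 1.59 ± 0.22, -1.84 ± 0.16, -1.79 ± 0.29 and 2.07 ± 0.36, and all were still called. Hoxc6, of the thorax, gave 5.66, 5.76 and 5.91 in E12.5 lens and 5.57, 5.66 and 5.35 in tooth germ, and its bodies gave 6.96, 7.43, 7.16 and 6.89 in the lens series and 4.91, 5.26 and 5.03 in the tooth series. Lens and tooth levels of Hoxc6 nearly overlapped, and the bodies differed. Of the 11 lower members, 10 were also called lower in the tooth-series body than in the lens-series body. All 4 higher members were called higher there. Both tests use the same body arrays, and the share of all genes called by both was not counted.

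**Figure D4:**
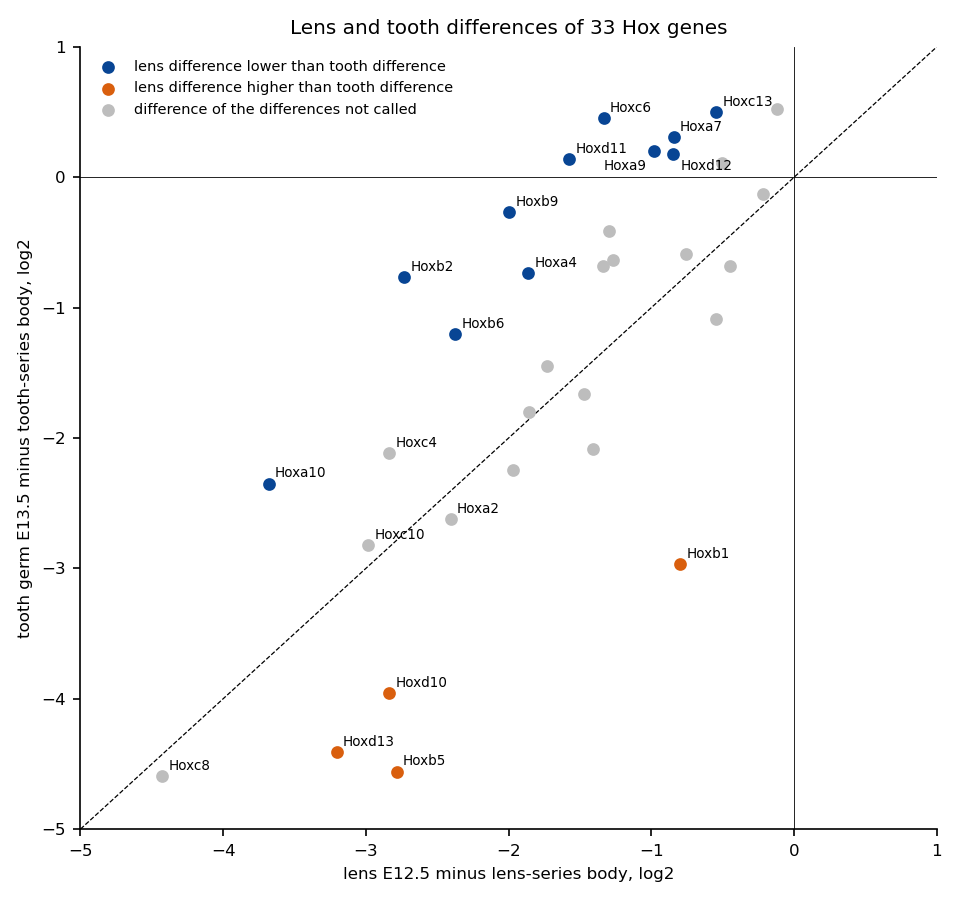
Difference of tooth germ from its body (log2, y axis) against the difference of E12.5 lens from its body (log2, x axis) for the 33 Hox genes. Each point is 1 gene, the dashed line marks equal differences, and colour gives the call of the test between them. The 11 blue genes lie above the line and the 4 orange genes, Hoxb1, Hoxb5, Hoxd10 and Hoxd13, lie below it.

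The bodies themselves differed in many members. The tooth-series body was lower than the lens-series body for 13 members and higher for 8, where 24.8% of all genes were lower and 26.4% higher. Hoxb5 rose from 7.32, 6.76, 6.0 and 7.48 to 9.12, 8.87 and 8.89 (2.07 ± 0.24, adjusted p = 7.15e-07). Hoxb1 rose from 4.35, 4.21, 4.08 and 4.36 to 6.54, 6.65 and 5.70 (2.05 ± 0.18, adjusted p = 1.15e-08), and since the lens-series arrays lay below background it was at least 3.01-fold higher (adjusted p = 1.07e-06 with values raised to background). Hoxc6 fell by 2.04 (SE 0.19, adjusted p = 2.94e-08), and Hoxd11 fell by 1.87 (SE 0.20, adjusted p = 2.3e-07), from 4.77, 5.64, 5.75 and 5.92 to 3.79, 3.58 and 3.58. The tooth-series arrays of Hoxd11 lay below background, so it was at least 1.76-fold lower there (adjusted p = 0.00219 with values raised). Each of these genes had bodies that did not overlap. The body arrays also enter the lens-tooth test. The series, the stage range of the body and the 3′ weighting of the signal cannot be told apart in them.

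Probe sets of the same Hox gene often gave unlike sizes. Of the 11 members with several (26 probe sets), 7 had every probe set called lower in E12.5 lens and 4 had some called lower and some not called. None of the 26 was called higher. The same shares over all genes with several probe sets were not counted. The Hoxa9 probe set that stands for the gene, its main one, fell by 0.98 ± 0.16 in E12.5 lens, and the other fell by 5.41 ± 0.25, from a mean of 9.06 in the body to 3.65. For Hoxa5 the main probe set fell by 0.55 ± 0.16, and the other fell by 4.63 ± 0.24, from 9.15 to 4.52. For Hoxb3 the differences were -1.30 ± 0.25 and -4.58 ± 0.24. In these 3 genes the main probe set lay above background on every lens array, and on the mean of the E12.5 lens arrays the other lay below it. The main probe set of Hoxa5 is of the kind whose identifier marks probes shared with other transcripts.

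Between the bodies 5 of the 11 members were called higher by 1 probe set and lower by another. How often this holds over all genes with several probe sets was not counted. For Hoxd13 the main probe set gave 1.61 ± 0.17 and the other -1.70 ± 0.20. For Hoxa5 they gave 1.30 ± 0.16 and -2.10 ± 0.24, for Hoxa9 -1.29 ± 0.16 and 1.80 ± 0.25, and for Hoxa4 -1.23 ± 0.23 and 0.95 ± 0.19. For Hoxc5 an alternative probe set gave 0.87 ± 0.32 and another -3.23 ± 0.27. The called direction between the bodies therefore depended on the probe set in these 5 genes. For Hoxa4 the probe set that rose lay below background on every body array but replicate 3 of the tooth series (4.92). Its rise therefore rests on values at background. Its identifier is of the same kind as that of the main Hoxa5 probe set. In the test between lens and tooth, Hoxd13 alone was called in both directions, 1.20 by the main probe set and -2.24 by the other. The part of the 3′ weighting in these differences was not tested.

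**Figure D5:**
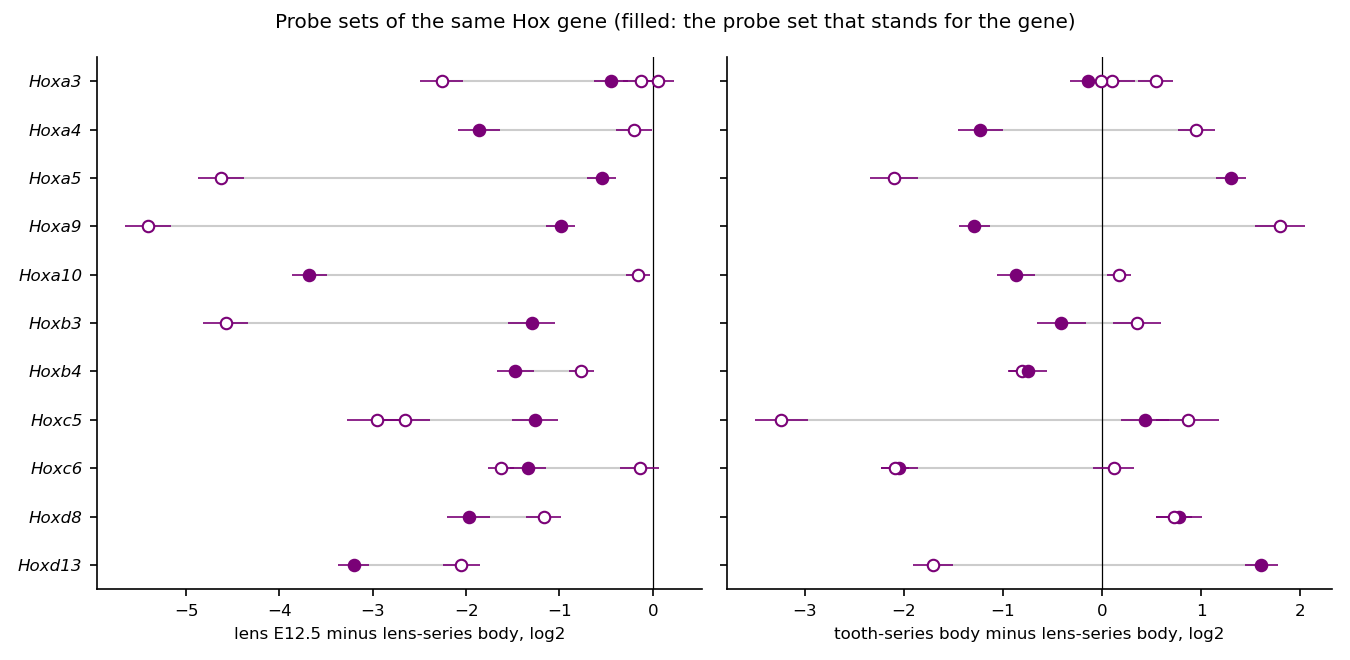
Differences (log2, x axes, with SE bars) by each probe set of the 11 Hox genes with several (y axis), for E12.5 lens against its body on the left and for the tooth-series body against the lens-series body on the right. Filled points are the probe sets that stand for the gene. On the left only 1 probe set, of Hoxa3, lies above 0, at 0.05, and on the right Hoxa4, Hoxa5, Hoxa9, Hoxc5 and Hoxd13 have probe sets called in both directions.

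Antisense transcripts and probe sets shared by neighbouring genes were read separately. The antisense transcript Hoxb5os fell by 2.54 ± 0.21 in E12.5 lens and fell by 2.59 ± 0.23 in tooth germ. Hoxa11os gave 3.90, 3.31 and 3.25 in E12.5 lens by a probe set whose body values, 3.02, 3.57, 3.51 and 3.04, overlapped. By its other probe set it gave 4.34, 4.02 and 4.11 against 5.51, 5.07, 4.80 and 5.30. Hoxd3os1 overlapped likewise by a probe set (4.11, 3.97 and 3.97 against 4.17, 4.41, 4.04 and 4.32). Its other gave 3.54, 3.35 and 3.61 against 4.47, 4.94, 4.53 and 4.25. The probe set shared by Hoxb8 and Hoxb7 fell by 1.63 ± 0.25 in E12.5 lens and fell by 1.42 ± 0.27 in tooth germ, while the Hoxb7 probe set of its own was at background in the lens. Both probe sets shared by Hoxd4 and Hoxd3 were called lower in E12.5 lens (-1.65 ± 0.13 and -2.03 ± 0.22) and neither in tooth germ (-0.31 ± 0.14 and 0.06 ± 0.24).

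Among the 8 measured TALE cofactors of Hox proteins, 2 were called higher and 5 lower in E12.5 lens, and 1 higher and 4 lower in tooth germ. Meis2 fell by 2.20 ± 0.32 in E12.5 lens and fell by 2.64 ± 0.34 in tooth germ. Meis1 fell by 0.96 ± 0.13 in lens and fell by 2.26 ± 0.13 in tooth germ, and Pbx2 rose by 0.89 ± 0.20 in lens. Pknox2 was called higher in lens (0.48 ± 0.16) and lower in tooth germ (-2.07 ± 0.17). The median of the list was -0.59 in lens and -0.57 in tooth germ.

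Of 13 inducers and upstream regulators, 1 was called higher and 5 lower in E12.5 lens, and 3 higher and 2 lower in tooth germ. Cyp26a1, which degrades retinoic acid, rose by 1.63 ± 0.18 in lens and 0.78 ± 0.19 in tooth germ. Aldh1a2, which makes it, differed by -4.19 ± 0.29 in E10.5 lens, -1.13 ± 0.29 in E12.5 lens and -1.61 ± 0.31 in tooth germ, and was called lower in each. The retinoic acid receptor gene Rarg fell by 1.17 ± 0.17 in E12.5 lens and rose by 1.20 ± 0.18 in tooth germ, and Egr2, a hindbrain regulator of Hox genes, rose by 1.94 ± 0.17 in tooth germ. The trunk regulators Cdx1, Cdx2 and Cdx4 were called in neither tissue.

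Of 17 Polycomb subunits 1 was called higher and 5 lower in E12.5 lens, among them Ezh2, the methyltransferase, at -1.42 ± 0.12, and 1 higher and 5 lower in tooth germ, where Ezh2 gave 0.01 ± 0.12. Of 8 Trithorax members and H3K27 demethylases, 0 were higher and 2 lower in E12.5 lens, and 3 higher and 1 lower in tooth germ, with Kmt2a at 1.30 ± 0.28. Of 15 genes that flank the Hox clusters, 4 were higher and 3 lower in E12.5 lens and 2 higher and 5 lower in tooth germ, with medians of 0.03 and -0.09. Skap2, which flanks the Hoxa cluster, was called lower in both tissues (-0.98 ± 0.19 and -2.70 ± 0.21), as was Evx1, a homeobox gene that flanks it too (-0.45 ± 0.14 and -0.71 ± 0.15). Of 9 anterior head transcription factors, 3 were called higher and 5 lower in E12.5 lens, and 0 higher and 6 lower in tooth germ. Six3, of the eye field, rose by 3.50 ± 0.28 in lens, and Otx2, of the forebrain and midbrain, fell by 2.81 ± 0.17 in lens and fell by 2.54 ± 0.19 in tooth germ.

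Markers of other cell types were compared in the same way. In E12.5 lens all 8 muscle markers, 7 of 9 hindbrain and spinal cord neuron markers, 7 of 8 paraxial mesoderm markers, 4 of 8 limb and trunk mesenchyme markers and 5 of 6 urogenital markers were called lower than in the body, and 0 of each list higher. In tooth germ 8 of 8, 7 of 9, 7 of 8, 4 of 8 and 1 of 6 were lower, and 2 limb and trunk mesenchyme markers and 1 urogenital marker were higher. Of 6 macrophage markers 2 were higher and 0 lower in E12.5 lens, and of 6 pigment and optic vesicle markers 3 were higher and 1 lower. In tooth germ 3 and 2 of these were lower and 0 higher. The muscle markers averaged 4.85 to 4.96 over the E12.5 lens arrays and 9.18 to 9.32 over the body arrays, and the neuron markers 4.80 to 5.12 and 7.61 to 7.99. Over the tooth arrays the muscle markers averaged 4.88 to 5.20 and over their body 7.52 to 7.99, and the neuron markers 4.87 to 4.95 and 6.24 to 6.65. The part of cell composition in the Hox differences was not tested.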

How the data were processed

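RNA of 19 samples was measured on Affymetrix arrays, after linear labelling by in vitro transcription per the labels' protocols. The deposited values are the authors' RMA intensity per probe set on a linear scale; RMA and affy 0.7 are named per the submitters' processing notes, and further steps are not given in the sources used here. Signals ran from 5.4 to 25043.5 and were taken to log2 with no offset and no further normalization. Of 45101 probe sets, 34945 name 1 gene and 932 name several. Of the 34945, 34741 were matched to GRCm38.p6 gene symbols and the rest kept the symbol of the array annotation. Together the 34945 gave 18193 genes. One mean per group was fitted over all 19 arrays with limma 3.58.1 (R 4.3.3) and eBayes, with no filter on signal, and Benjamini-Hochberg adjusted p-values over 18193 genes were called below 0.05, two-sided. Tables were made with Python 3.11.15, numpy 2.4.6 and pandas 2.3.3, and the fit was tested on simulated data.

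The members and gene lists were chosen with earlier results of these data known. Named with full values are the 4 called members with the largest fall in each comparison with a body, called members that rose, up to 4 called members in the other comparisons, members not called against either body, and the leading member of each paralogue number; further members are given as illustration. Most named members above background on every body array and on no array of the tissue have a lower bound beside the measured difference. For the bound, values under the background were raised to it. Replicate numbers were checked for pairing: the correlation of deviations of same-numbered arrays ran from -0.50 to 0.63. Only between E11.5 and E12.5 lens was it over 0.1 for all 3 pairs (0.59, 0.63 and 0.35). At both of these stages replicate 1 has high spike-in signal and replicates 2 and 3 low, so pairing and spike-in signal cannot be told apart. The main fit used no pairing, and the replicate number entered as a block only in an alternative fit. Within a group, arrays correlated between 0.964 and 0.995 and shared at most 2.04% of identical values.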

Additional observations from a re-analysis of the deposited data

Results flagged for a closer look

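Hoxd12 on replicate 3 of the lens-series body stood at 5.72 (log2), apart from the other 3 arrays of its group, which lay between 4.95 and 5.05. The check covered the 33 members in this group, and groups of 3 arrays were not checked. Chance sets apart about 1 in 20 such groups, so 1 of 33 is no more than chance gives.

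The test of the E12.5 lens difference against the tooth difference called 15 members. It was lower for Hoxa4 (-1.13), Hoxa7 (-1.15), Hoxa9 (-1.18), Hoxa10 (-1.33), Hoxb2 (-1.96), Hoxb6 (-1.17), Hoxb9 (-1.73), Hoxc6 (-1.79), Hoxc13 (-1.05), Hoxd11 (-1.72) and Hoxd12 (-1.03). It was higher for Hoxb1 (2.17), Hoxb5 (1.78), Hoxd10 (1.12) and Hoxd13 (1.20). All 15 members but Hoxc13 were also called in the same direction between the bodies, whose arrays enter this test. Hoxb1 was at background in the lens, in tooth germ and in the lens-series body.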

How the results depend on the processing

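The number of members called against the lens-series body was 29, 25 and 29 for the lens stages from youngest to oldest. Leaving out 1 array at a time gave 27 to 29, 24 to 31 and 27 to 28, and the other alternatives 24 to 31, 22 to 31 and 23 to 31. In tooth germ it was 22, with 18 to 22 and 17 to 26. The 20 lower and 2 higher members of tooth germ became 18 and 0 without tooth replicate 2. Between lens stages the count of 0 became 1 from E10.5 to E11.5 with the spike-in set as a block (Hoxd12 0.70, limma adjusted p = 0.0464), 2 within the arrays of high spike-in signal (Hoxa3 0.81 and Hoxd12 1.33, limma adjusted p = 0.0494 and 0.0294; E11.5 is there 1 array against 2, assumed to vary like the other groups), and 0 to 1 from E10.5 to E12.5 with 1 array left out, the 1 being Hoxb2 (0.59, limma adjusted p = 0.0430) without E12.5 replicate 1. The lens-tooth test called 15 members, 12 to 17 with 1 array left out, and 9 when every probe set of a gene had to be called. The bodies differed in 21 members, 19 to 24 with 1 array left out and 15 to 24 otherwise.

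With the mean of all probe sets of a gene, Hoxd13 turned to -0.52 in the lens-tooth test (limma adjusted p = 0.0697), and between the bodies Hoxa5 turned to -0.40 (0.0195), Hoxa9 to 0.26 (0.171) and Hoxd13 to -0.048 (0.808). With the replicate number as a block, the counts were 29, 24 and 27 at the 3 lens stages and 23 in tooth germ. They were 0 in each stage comparison, 16 in the lens-tooth test and 24 between the bodies. The block changed no call from E11.5 to E12.5, where same-numbered arrays correlated in all 3 pairs. Calls held in every refit that tested the member for 22 of 29, 21 of 25 and 22 of 29 at the lens stages. In tooth germ they held for 18 of 22. The expression filter left 25 of 33 members to test. The rule that every probe set be called is not part of these counts. Under that rule 26, 22 and 26 members were called at the lens stages and 18 in tooth germ. Below the control background a level has no order, which limits falls to lower bounds.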
